A study of Sus scrofa with 6 samples.

Results

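The collagens of basement membranes and vessel walls were followed in longissimus dorsi, a muscle of the back, of 3 adipocyte-specific UCP1 KI pigs and 3 WT pigs. The 9 genes were taken by symbol and comprise the 6 chains of collagen IV (*COL4A1* to *COL4A6*), *COL13A1*, *COL15A1* and *COL18A1*. All 9 were found among the 30476 Ensembl pig genes of the count table, and 7 of them had enough counts to be tested. The UCP1 KI pigs carry a UCP1 gene knocked in for expression in adipocytes, whereas the WT pigs are unmodified, and all were 6 months old. One library was sequenced for each pig. What drives the transgene in adipocytes is not given in the sources used here, and no identifier was matched to the symbol *UCP1*, so the genotype was not checked in the counts. The transgene is directed to adipocytes and the tissue measured here is muscle. The labels do not give the sex of the pigs, and the Y-linked gene *KDM5D* was counted in every pig, 30 to 71 times.

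Basement membranes are thin sheets of matrix under endothelium and around every muscle fibre, pericyte, adipocyte and Schwann cell. Collagen IV forms their network. Its chains assemble into triple helices of fixed composition, the widespread one being built from the COL4A1 and COL4A2 chains, and the others from COL4A3, COL4A4 and COL4A5 or from COL4A5 and COL4A6. Collagens XV and XVIII carry glycosaminoglycan chains and sit at the basement membrane zone, and the end of the collagen XVIII chain can be cut off as endostatin, an inhibitor of blood vessel growth. Collagen XIII is a transmembrane collagen known for its role at the neuromuscular junction.

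The positions of the genes on the assembly Sscrofa11.1 show how closely several of them are paired. *COL4A1* (ENSSSCG00000044700) spans chr11:76858332-76997409 and *COL4A2* (ENSSSCG00000009545) spans chr11:76996885-77161617, so that the RefSeq models share 525 bases at their ends. *COL4A4* (ENSSSCG00000016244), at chr15:128472228-128612302, and *COL4A3* (ENSSSCG00000016245), at chr15:128611640-128763331, share 663 bases in the same way. On the X chromosome, *COL4A6* (ENSSSCG00000012571) at chrX:88634925-88750938 and *COL4A5* (ENSSSCG00000012572) at chrX:88958837-89183306 lie 207898 bases apart. The other members are single loci, *COL13A1* (ENSSSCG00000010256) at chr14:72786780-72953093, *COL15A1* (ENSSSCG00000005380) at chr1:240718128-240829188 and *COL18A1* (ENSSSCG00000038089) at chr13:207907835-207984082. Reads from a shared stretch could be given to either gene of a pair, since the counting program is not given in the sources used here.

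Levels are CPM, the counts of a gene scaled to a common library total with TMM factors, and are compared between pigs and not between genes, because lengths of the transcripts were not used here. The libraries held 30220951 to 35066624 counts on genes, and 3 counts, the most that a count of 0 allows for, were worth 0.0794 to 0.11 CPM (counting error only). The TMM factor was lowest in WT replicate 2 (0.781) and highest in UCP1 KI replicate 2 (1.18). WT replicate 2 stood apart, with 56.5% of its counts in its 20 most counted genes against 39.0% to 44.8% in the other libraries, and it was also the pig with the highest *COL4A5*, *COL4A6* and *COL18A1*. Scaled by library size only, *COL18A1* was higher in WT replicate 1 (18.8 CPM) than in WT replicate 2 (17.6 CPM). *COL4A5* was then at 5.29 and 5.33 CPM in these pigs. The part of this library in the results was not tested. A gene was called when its unadjusted p from edgeR's quasi-likelihood test was under 0.05 and its absolute log2 fold change was above 0.5. By this rule 8.19% of the 13402 genes tested were called, 4.34% lower and 3.84% higher in UCP1 KI pigs, and 0 genes had a Benjamini-Hochberg adjusted p under 0.05 (1100 genes, or 8.21%, had an unadjusted p under 0.05, and DESeq2 on the same genes gave 127, or 0.948%, with an adjusted p under 0.05). The skeletal muscle genes *ACTA1*, *CKM* and *DES* summed to between 44272 and 72253 CPM in every pig, and 0 of the 3 were called (edgeR, unadjusted p from 0.108 upwards).

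*COL18A1* and *COL4A5* were called lower in UCP1 KI pigs, and the 5 other tested members were not called. All 7 tested members had a fitted log2 fold change below 0, against 51.3% of all genes tested, with a median of -0.89 against -0.02 for all genes. The members are not separate observations, as they come from the same 6 pigs and some followed each other closely. On the log2(CPM + 1) scale the Pearson r was 0.98 for *COL4A1* and *COL4A2*, though -0.30 for *COL4A1* and *COL4A3*. The 2 calls among 7 tested members stand beside the 4.34% of all tested genes called lower. Neither passed after adjustment over all genes, and the counts rest on few pigs. Leaving out replicate 2 of either group left 0 of the 7 members called, and leaving out WT replicate 3 gave 4. The calls over all genes moved the same way, to 4.92% without UCP1 KI replicate 2, 5.19% without WT replicate 2 and, without WT replicate 3, up to 1541 of 13864 genes from 1097 of 13402.

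**Figure D1:**
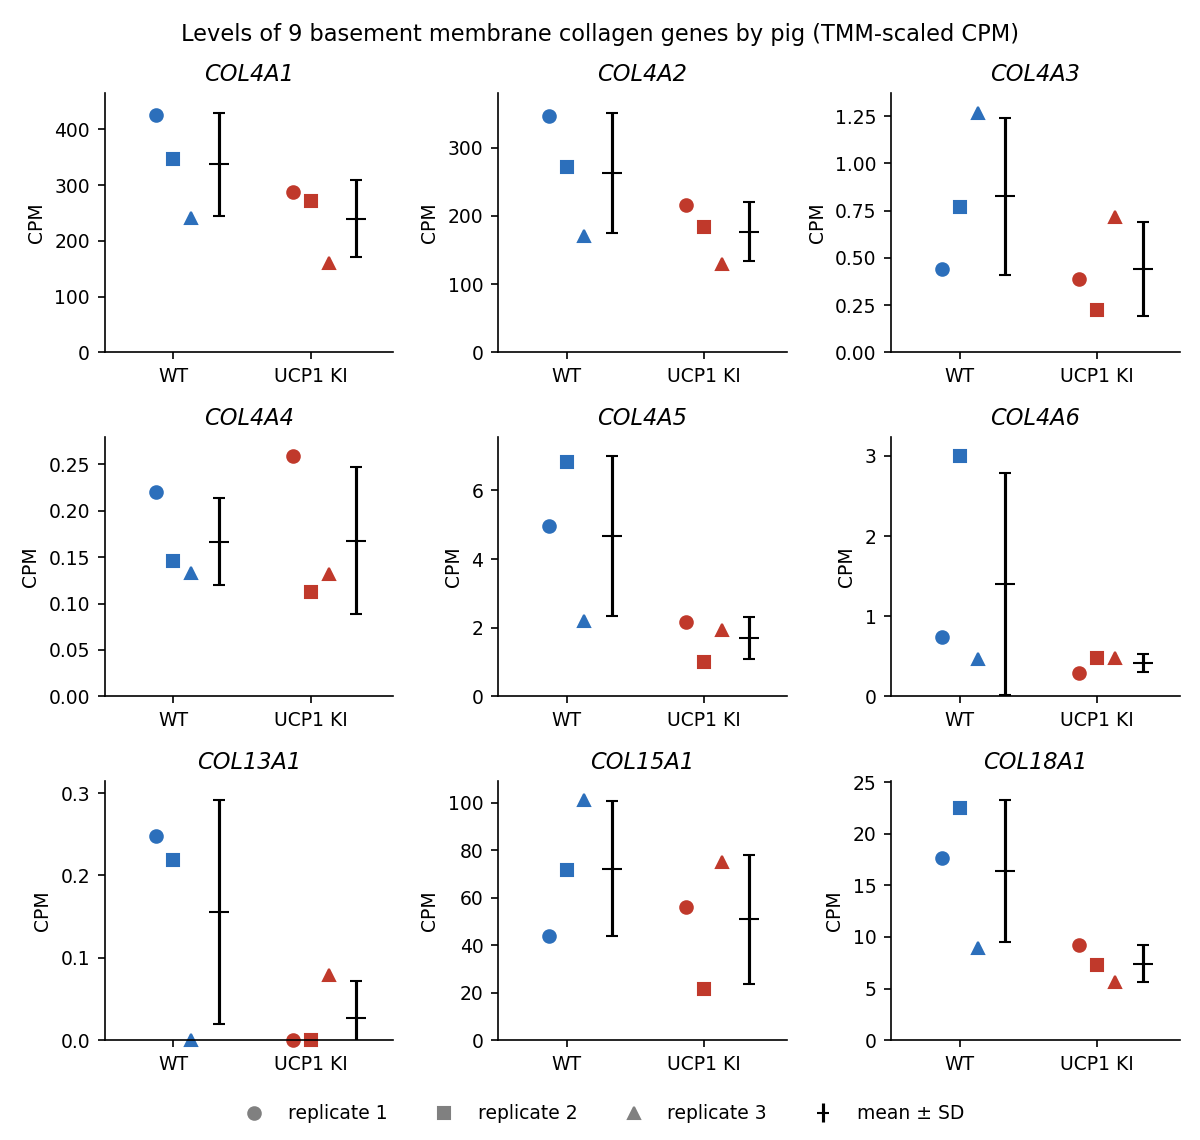
Level of each of the 9 collagen genes in every pig, in TMM-scaled CPM on a linear axis from 0 with a separate scale for each gene; symbols mark the replicate, and the black bars give mean ± SD of 3 pigs. WT replicates 1 and 2 stand above all UCP1 KI pigs for *COL4A5* and *COL18A1*, while WT replicate 3 lies close to the UCP1 KI pigs, and *COL4A4* and *COL13A1* stay under 0.3 CPM in every pig.

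The main chains of vascular and muscle fibre basement membranes, *COL4A1* and *COL4A2*, were lower on average in UCP1 KI pigs, but within the spread between pigs. *COL4A1* was measured at 287, 272 and 161 CPM in UCP1 KI replicates 1 to 3 and at 425, 347 and 241 CPM in WT replicates 1 to 3. The groups overlapped, with WT replicate 3 below 2 of the UCP1 KI pigs. Its means were 239.9 ± 69.1 CPM in UCP1 KI pigs and 338 ± 92.6 CPM in WT pigs (SD, n = 3), and the log2 fold change was -0.49 with a 95% interval from -1.27 to 0.29 (edgeR, unadjusted p = 0.182, adjusted p = 0.707). *COL4A2* was at 215, 184 and 129.9 CPM in UCP1 KI pigs and at 346, 272 and 171 CPM in WT pigs, which again overlapped through WT replicate 3. Its log2 fold change was -0.58, with an interval from -1.36 to 0.21 (edgeR, unadjusted p = 0.128, adjusted p = 0.678). With each pig left out, *COL4A2* lay between -0.33, without WT replicate 1, and -0.81, without WT replicate 3, where it was called. *COL4A1* lay between -0.68 (WT replicate 3 left out) and -0.28 (UCP1 KI replicate 3 left out), was at -0.30 without WT replicate 1, and was called in none of these fits.

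Both genes kept nearly the same proportion to each other in all pigs. The ratio of *COL4A2* counts to *COL4A1* counts was 0.749, 0.678 and 0.809 in UCP1 KI replicates 1 to 3 and 0.814, 0.784 and 0.710 in WT replicates 1 to 3. The groups overlapped, and the mean log2 ratio differed by -0.05 (two-sided exact permutation test, p = 0.6). Over the 6 pigs the levels of the 2 genes followed each other with a Pearson r of 0.98 on the log2(CPM + 1) scale, and of 0.97 after the group means were removed, as a description of pigs that share libraries and scaling between genes. The difference in *COL4A2* per *COL4A1* was therefore within the spread, while the level of both varied between pigs of the same genotype.

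Chains of the specialised collagen IV networks took a small part of the collagen IV counts. *COL4A3* to *COL4A6* together held 0.614%, 0.398% and 1.11% of the counts of the 6 chains in UCP1 KI replicates 1 to 3. In WT replicates 1 to 3 they held 0.818%, 1.70% and 0.979%. The exact 95% binomial intervals, which cover counting error only, reached from 0.307% to 0.507% in the lowest pig, UCP1 KI replicate 2, and from 1.52% to 1.91% in the highest, WT replicate 2. These shares are not corrected for the lengths of the genes, and the groups overlapped.

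*COL4A5*, which encodes the chain shared by both specialised networks and is the gene of X-linked Alport syndrome, a disease of the kidney and inner ear, was called lower in UCP1 KI pigs. It was measured at 2.17, 1.01 and 1.93 CPM in UCP1 KI replicates 1 to 3 and at 4.96, 6.83 and 2.20 CPM in WT replicates 1 to 3. Every UCP1 KI pig was below every WT pig, as for 7.69% of all genes tested (7.59% had the opposite order and 15.3% either), though WT replicate 3 exceeded UCP1 KI replicate 1 by a narrow margin. The counts behind these values were 67, 36 and 73 in the UCP1 KI group against 180, 187 and 66 in the WT group. Scaled by library size only, WT replicate 3 (2.02 CPM) fell below UCP1 KI replicates 1 and 3 (2.05 and 2.26 CPM), so the separation depends on the TMM factors. The means were 1.70 ± 0.612 CPM in UCP1 KI pigs and 4.66 ± 2.33 CPM in WT pigs (SD, n = 3). The log2 fold change was -1.45 (standard error 0.50, interval -2.61 to -0.29), with an unadjusted p of 0.0207 and an adjusted p of 0.583 from edgeR. It was called in 3 of the 6 fits with a pig left out, and lost when replicate 2 of the UCP1 KI group (-1.20) or either of WT replicates 1 and 2 (-1.42 and -1.07) was left out. It was also not called with the replicate number as a block (-1.36, edgeR unadjusted p = 0.0551). Per *COL4A1* count, *COL4A5* overlapped between the groups, with a log2 ratio difference of -0.87 (two-sided exact permutation test, p = 0.3).

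*COL4A6*, the neighbour of *COL4A5* and its partner in 1 of the networks, had the lowest fitted change of the 7 tested members, and its WT level varied about as much as its mean. It was at 0.291, 0.476 and 0.477 CPM in UCP1 KI pigs and at 0.744, 2.99 and 0.467 CPM in WT pigs. WT replicate 2, with 82 counts, stood far above the rest, while WT replicate 3, with 14 counts, lay among the UCP1 KI pigs. The log2 fold change of -1.74 (interval -3.50 to 0.03) was not called, with an unadjusted p of 0.0530 and an adjusted p of 0.610 from edgeR. Without WT replicate 2 it was -0.54, and it was called without WT replicate 1 (-2.06) or WT replicate 3 (-2.15). DESeq2 on the same genes called it at -1.76 (unadjusted p = 0.0316, adjusted p = 0.427), making 3 members called where 9.77% of all genes were, and edgeR called it at -1.71 when all genes with any count were kept. Per *COL4A5* count, *COL4A6* did not differ beyond the spread, with a log2 ratio difference of 0.07 (two-sided exact permutation test, p = 0.8).

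*COL4A3* and *COL4A4*, the chains that join COL4A5 in kidney and other specialised membranes, were near the limit of the depth. *COL4A3* was counted 12, 8 and 27 times in the UCP1 KI group against 16, 21 and 38 times in the WT group, with overlapping levels. Its log2 fold change was -0.89 with an interval from -2.39 to 0.62 (edgeR, unadjusted p = 0.209, adjusted p = 0.725), and the fits that left out a pig gave -1.41 (without UCP1 KI replicate 3) to -0.43 (without WT replicate 3). *COL4A4* was counted 8, 4 and 5 times in the UCP1 KI group against 8, 4 and 4 times in the WT group, too few to pass edgeR's filter. The ratio of the summed *COL4A4* counts, UCP1 KI over WT, was 0.953 with an exact 95% Poisson interval from 0.453 to 2.02, which covers counting error only. A difference in *COL4A4* was not detectable at this depth. The log2 ratio of *COL4A4* to *COL4A3* differed by 0.84 between the groups (two-sided exact permutation test, p = 0.4). Over the 6 pigs *COL4A3* had a Pearson r of -0.30 with *COL4A1*, and of -0.93 after the group means were removed, as a description with no test.

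*COL18A1*, the collagen that holds endostatin as part of its chain, was the other member called lower in UCP1 KI pigs. It was at 9.24, 7.32 and 5.64 CPM in UCP1 KI replicates 1 to 3 and at 17.7, 22.5 and 8.94 CPM in WT replicates 1 to 3. WT replicates 1 and 2 were well above all UCP1 KI pigs, and WT replicate 3 lay below UCP1 KI replicate 1, so the groups overlapped. Its means were 7.40 ± 1.80 CPM in UCP1 KI pigs and 16.4 ± 6.88 CPM in WT pigs (SD, n = 3), which makes the UCP1 KI mean 45.2% of the WT mean. The log2 fold change was -1.15 (standard error 0.38, interval -2.03 to -0.26), with an unadjusted p of 0.0180 and an adjusted p of 0.583 from edgeR. It was called when UCP1 KI replicate 1 (-1.33) or WT replicate 3 (-1.44) was left out. In the other 4 fits with a pig left out it lay between -1.15 and, without WT replicate 2, -0.85, and was not called. The ratio of *COL18A1* counts to *COL4A1* counts was 0.0322, 0.0270 and 0.0352 in the UCP1 KI group against 0.0416, 0.0650 and 0.0372 in the WT group, without overlap. This difference of -0.57 in log2 ratio does not depend on library scaling, but it was -0.33 without WT replicate 2 and -0.73 without WT replicate 3. It had the smallest p that 3 pigs against 3 allow (two-sided exact permutation test, p = 0.1, adjusted p = 0.6 over 6 ratios).

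*COL15A1*, a collagen of capillary and muscle fibre basement membranes, varied between pigs in an order of its own. It was at 56.1, 21.4 and 74.8 CPM in UCP1 KI replicates 1 to 3 and at 43.8, 71.7 and 101 CPM in WT replicates 1 to 3. The highest level was in WT replicate 3, the WT pig with the lowest *COL4A1*, and the lowest was in UCP1 KI replicate 2. Its log2 fold change was -0.51 with an interval from -1.64 to 0.62 (edgeR, unadjusted p = 0.329, adjusted p = 0.792), and it moved between -0.88, without UCP1 KI replicate 3, and -0.15, without UCP1 KI replicate 2, with each pig left out. Per *COL4A1* count, *COL15A1* overlapped between the groups, with a log2 ratio difference of -0.11 (two-sided exact permutation test, p = 0.9). Over the 6 pigs *COL15A1* had a Pearson r of 0.90 with *COL4A3* and of -0.30 with *COL4A1*, or of 0.88 and -0.73 after the group means were removed, as a description with no test.

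*COL13A1* was counted 0, 0 and 3 times in the UCP1 KI group against 9, 6 and 0 times in the WT group, and was not tested. The ratio of its summed counts, UCP1 KI over WT, was 0.179 with an exact 95% Poisson interval from 0.0333 to 0.634. That interval covers counting error only, and WT replicate 3 had no count, so the spread between WT pigs reaches the level of the UCP1 KI pigs. An edgeR fit that kept every counted gene put it at -2.33 on the log2 scale (unadjusted p = 0.228). Of the 5 neuromuscular junction markers tested, *LRP4*, the agrin receptor of muscle, was called higher in UCP1 KI pigs (log2 fold change 0.98, unadjusted p = 0.0372 and adjusted p = 0.603 from edgeR), and *CHRNE*, *CHRNA1*, *MUSK* and *COLQ* were not called. *LRP4* was called in 2 of the 6 fits with a pig left out, was at 0.49 without UCP1 KI replicate 2, and was not called with the replicate number as a block (0.88).

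**Figure D2:**
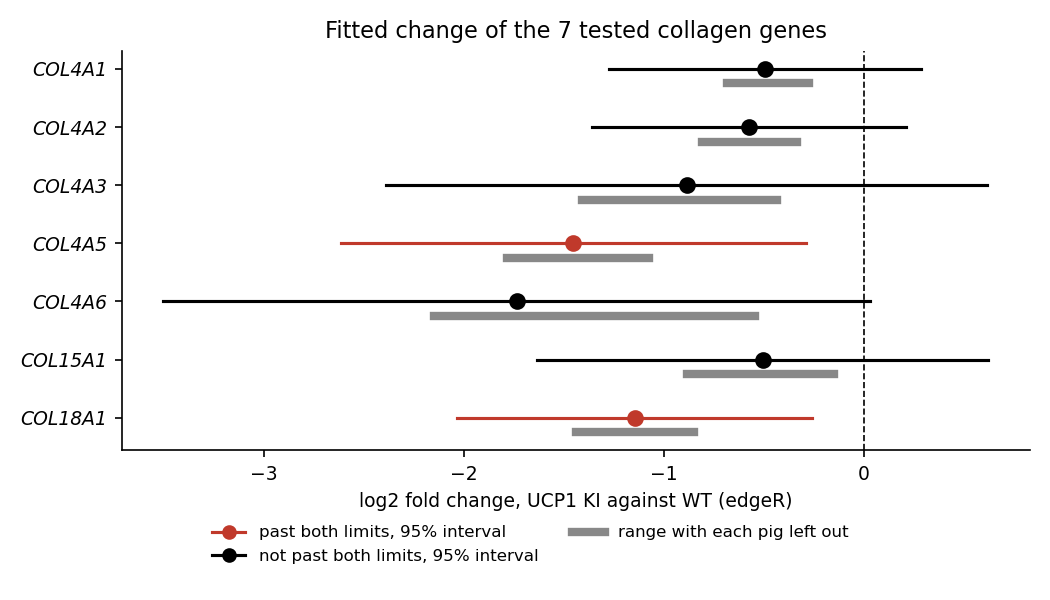
Fitted log2 fold change of the 7 tested collagen genes, UCP1 KI against WT, with the 95% interval from edgeR as a thin line and the range over the 6 fits that each leave out a pig as a grey bar. The intervals of *COL4A5* and *COL18A1*, in red, end below 0, at -0.29 and -0.26, and all grey bars lie below 0.

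Since these collagens are made by endothelial cells and by the cells around vessels, the levels of cell type markers were set beside them. In bulk muscle, fewer cells of a type and less RNA per cell cannot be told apart. Of 13 endothelial markers tested, *TEK*, the angiopoietin receptor, was called higher (44.98 ± 6.23 CPM in UCP1 KI pigs and 19.6 ± 3.61 CPM in WT pigs, SD, n = 3; adjusted p = 0.403 from edgeR and 0.00408 from DESeq2), and 0 were called lower. *PECAM1*, the adhesion molecule CD31 of endothelium, was at 233 ± 62.3 CPM and 231 ± 60.3 CPM (SD, n = 3), and *CDH5*, the cadherin of endothelial junctions, at 68.2 ± 21.1 CPM and 66.4 ± 28.6 CPM (SD, n = 3). The summed endothelial markers ranged from 607 to 1192 CPM in UCP1 KI pigs and from 599 to 1082 CPM in WT pigs, with a median log2 fold change of 0.13. The lowest sums of both groups were in replicate 3. All 13 markers had counts, and *VWF* and *EGFL7* were not matched to an identifier by symbol.

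Relative to the mean of the endothelial markers, 4 of the 7 tested members had all UCP1 KI pigs below all WT pigs, as did 7.1% of all genes tested (8.99% did not overlap in either direction). For *COL4A1* this relative level, log2 CPM minus the mean log2(CPM + 1) of the markers, was 2.34, 2.10 and 2.16 in UCP1 KI replicates 1 to 3. In WT replicates 1 to 3 it was 2.85, 2.82 and 2.83. The 3 WT pigs thus had nearly equal levels on this scale, although their *COL4A1* differed from 241 to 425 CPM. *COL4A2* was at 1.92, 1.54 and 1.86 in UCP1 KI pigs and at 2.55, 2.47 and 2.34 in WT pigs. *COL4A5* and *COL18A1* were the other members without overlap, with mean differences of -1.51 and -1.21, whereas *COL4A3*, *COL4A6* and *COL15A1* overlapped. With *TEK* left out of the markers, the count was 4 of 7, against 4.92% of all genes.

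The collagens were also set against the markers of pericytes and smooth muscle cells, the cells that wrap vessels. All 8 of these markers had a log2 fold change below 0, with a median of -0.80, and *NOTCH3*, a receptor of vascular smooth muscle, and *ABCC9*, a channel subunit of pericytes, were called lower, at -1.02 and -0.74 (edgeR, adjusted p = 0.603 for both). *NOTCH3* was called in 3 of the 6 fits with a pig left out and was at -0.43 without WT replicate 1, *ABCC9* was called in 1 of them, with values from -0.98 to -0.47, and neither was called when scaled by library size only or with the replicate number as a block (-0.88 and -0.68). The summed level ranged from 286 to 376 CPM in UCP1 KI pigs and from 350.2 to 737 CPM in WT pigs, and none of the markers was at 0. Relative to the mean of these markers, 0 of the 7 collagens were separated between the groups; since only 0.709% of all genes were lower in every UCP1 KI pig on this scale, nothing is read from that count. *COL4A1* was then at 3.45, 3.43 and 2.97 in UCP1 KI pigs and at 3.06, 3.16 and 3.21 in WT pigs, and *COL18A1* at -1.51, -1.79 and -1.86 and at -1.53, -0.78 and -1.54. The markers were thus lower on average in UCP1 KI pigs, as the collagens were, and their part in the differences was not tested.

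Fibroblast markers were closer to level between the groups. Of 7, *LUM*, a matrix proteoglycan, was called lower (log2 fold change -0.57, edgeR adjusted p = 0.605), though in 1 of the 6 fits with a pig left out and not with library size only (-0.31), with all genes with any count or with the replicate number as a block (-0.55 for both). The median was -0.35, and their sum ranged from 184 to 187 CPM in UCP1 KI pigs and from 184 to 269 CPM in WT pigs. Relative to the fibroblast markers, *COL4A5* and *COL18A1* were lower in every UCP1 KI pig, and the other 5 tested members overlapped, beside 3.57% of all genes. The comparisons with pericyte and fibroblast markers were chosen after the values were seen.

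**Figure D3:**
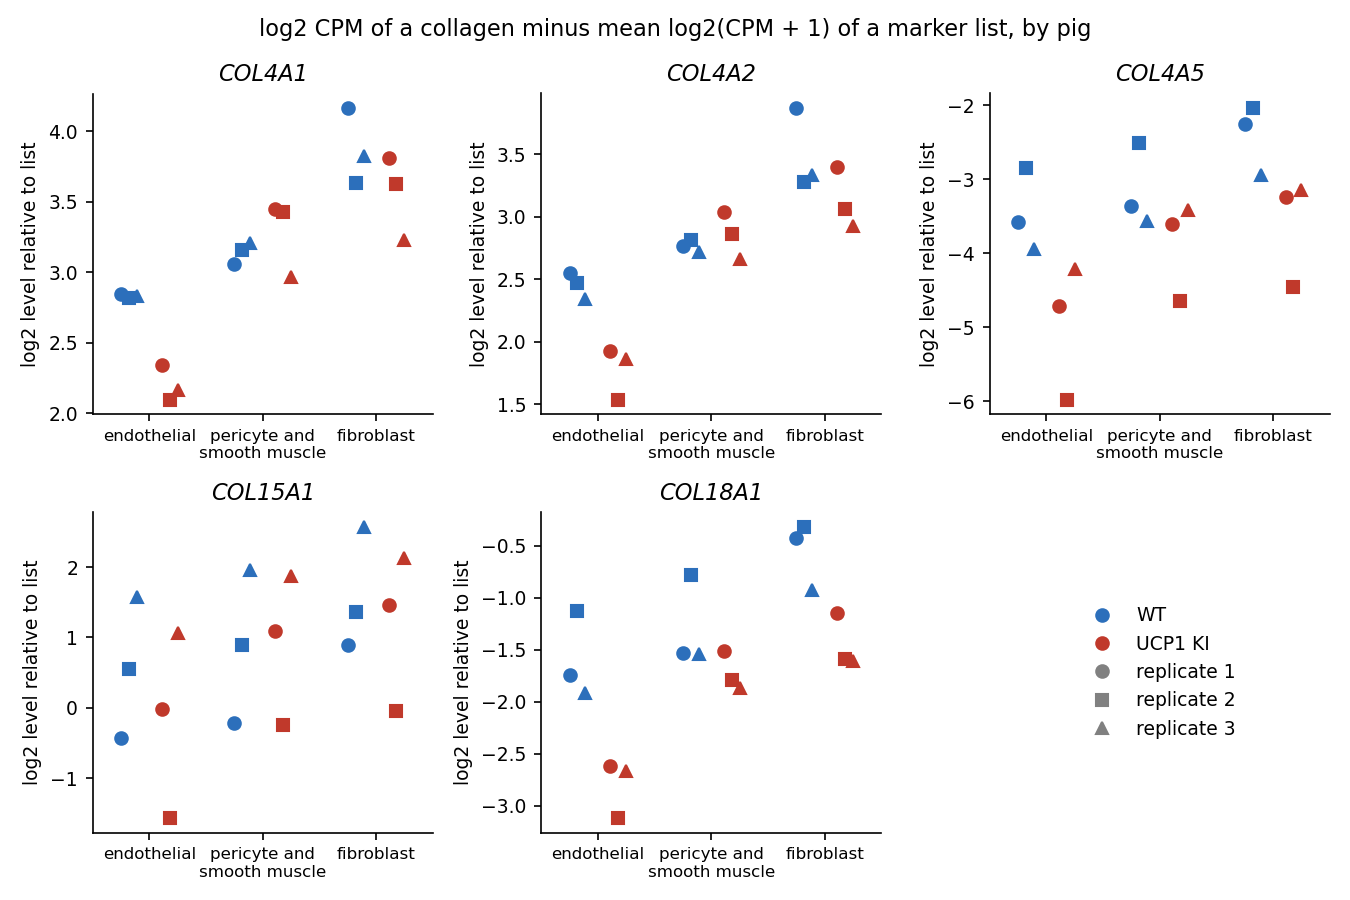
Level of 5 collagen genes in every pig, as log2 CPM minus the mean log2(CPM + 1) of endothelial, pericyte and smooth muscle, or fibroblast markers; symbols mark the replicate, and each gene has its own scale. For *COL4A1* the WT pigs lie at 2.82 to 2.85 and the UCP1 KI pigs at 2.10 to 2.34 relative to endothelial markers, and the groups overlap relative to pericyte and smooth muscle markers.

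Other genes of the basement membrane were examined beside the collagens. Of 50 partner genes listed, 44 were tested, with a median log2 fold change of -0.31. Of these, 4 were called lower and 2 higher, beside 4.34% and 3.84% of all genes tested. Every UCP1 KI pig was below every WT pig in 8 of the 44 and above in 2, beside 7.69% and 7.59% of all genes. Among 9 laminins, the cell-binding proteins of the membrane, *LAMA4*, the alpha chain of vascular laminin, was lower in every UCP1 KI pig, at 17.0 ± 3.94 CPM against 33.9 ± 10.01 CPM in WT pigs (SD, n = 3). Its log2 fold change of -0.998 was called in all 6 fits with a pig left out (edgeR, unadjusted p = 0.0126, adjusted p = 0.583). *LAMC1*, the gamma chain of most laminins, was at 97.9 ± 21.0 CPM in UCP1 KI pigs and 87.2 ± 7.40 CPM in WT pigs (SD, n = 3) and was not called. *LAMA2*, the alpha chain of muscle fibre laminin, was not matched to an identifier, as only 14864 of the 30476 identifiers were paired with a symbol.

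Of the 4 genes that link or fill the network, *AGRN*, the agrin of the nerve-muscle synapse, was called lower, at -0.72 (edgeR, adjusted p = 0.603), but in 2 of the 6 fits with a pig left out, and neither with library size only (-0.46) nor with the replicate number as a block (-0.70). *HSPG2*, the proteoglycan perlecan, was at 157 ± 12.0 CPM in UCP1 KI pigs and 226 ± 59.4 CPM in WT pigs (SD, n = 3), and *NID1* and *NID2*, the nidogens that bridge laminin and collagen IV, had log2 fold changes of -0.23 and -0.48; none of these 3 was called. Among the receptors, *ITGA3*, a laminin-binding integrin chain, was at 1.39 ± 0.959 CPM in UCP1 KI pigs and 5.88 ± 3.03 CPM in WT pigs (SD, n = 3), lower in every UCP1 KI pig. Its log2 fold change of -2.08 was called in all 6 fits with a pig left out (edgeR, adjusted p = 0.583). *ITGA1*, a chain of the collagen IV receptor, was not called, at 0.74.

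Genes for folding and cross-linking collagen did not share 1 direction, with a median of 0.07 over 15 genes. *SPARC*, a collagen-binding protein that accompanies collagen IV, was lower in every UCP1 KI pig, at 266 ± 46.4 CPM against 505 ± 90.6 CPM in WT pigs (SD, n = 3), a log2 fold change of -0.92 (edgeR, adjusted p = 0.583). *P4HB*, a subunit of prolyl 4-hydroxylase, was called higher, at 0.72 (edgeR, adjusted p = 0.603), and in 2 of the 6 fits with a pig left out, which ranged from 0.52 to 0.97. *SERPINH1*, the collagen chaperone HSP47, was not called, at 225 ± 145 CPM in UCP1 KI pigs and 97.9 ± 20.9 CPM in WT pigs (SD, n = 3), and *PXDN*, the peroxidase that links collagen IV molecules, was not called, at -0.08. Of the 7 proteases and inhibitors tested, 0 were called, at an unadjusted p from 0.26 upwards in edgeR. *TIMP3*, an inhibitor bound to matrix, was at 256 ± 56.3 CPM in UCP1 KI pigs and 266 ± 109.7 CPM in WT pigs (SD, n = 3).

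Fibrillar collagens of the interstitial matrix, made largely by fibroblasts, had 6 calls among 10 tested genes, all lower, beside 4.34% of all tested genes called lower. Their median log2 fold change was -0.89, the same to this precision as the median of the basement membrane collagens. *COL1A1* and *COL1A2*, the chains of collagen I, were at -1.86 and -1.70 (edgeR, unadjusted p = 0.000361 and 0.00169, adjusted p = 0.280 and 0.460, and DESeq2 adjusted p = 4.44e-05 and 0.00406), *COL3A1* at -1.57, *COL27A1* at -1.34, *COL5A3* at -0.90 and *COL5A1* at -0.87. With a pig left out, *COL5A1* and *COL27A1* were called in 3 of 6 fits, *COL3A1* in 5 and the others in all 6. Scaled by library size only, *COL5A1*, *COL5A3* and *COL27A1* were not called (edgeR, unadjusted p = 0.0804, 0.0632 and 0.0541). All UCP1 KI pigs were below all WT pigs in 6 of the 10 fibrillar collagens tested, the same 6 that were called. Among the 7 basement membrane collagens tested this held for 1, *COL4A5*, and among all genes tested for 7.69%. The difference between the 2 groups of collagens was not tested.

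**Figure D4:**
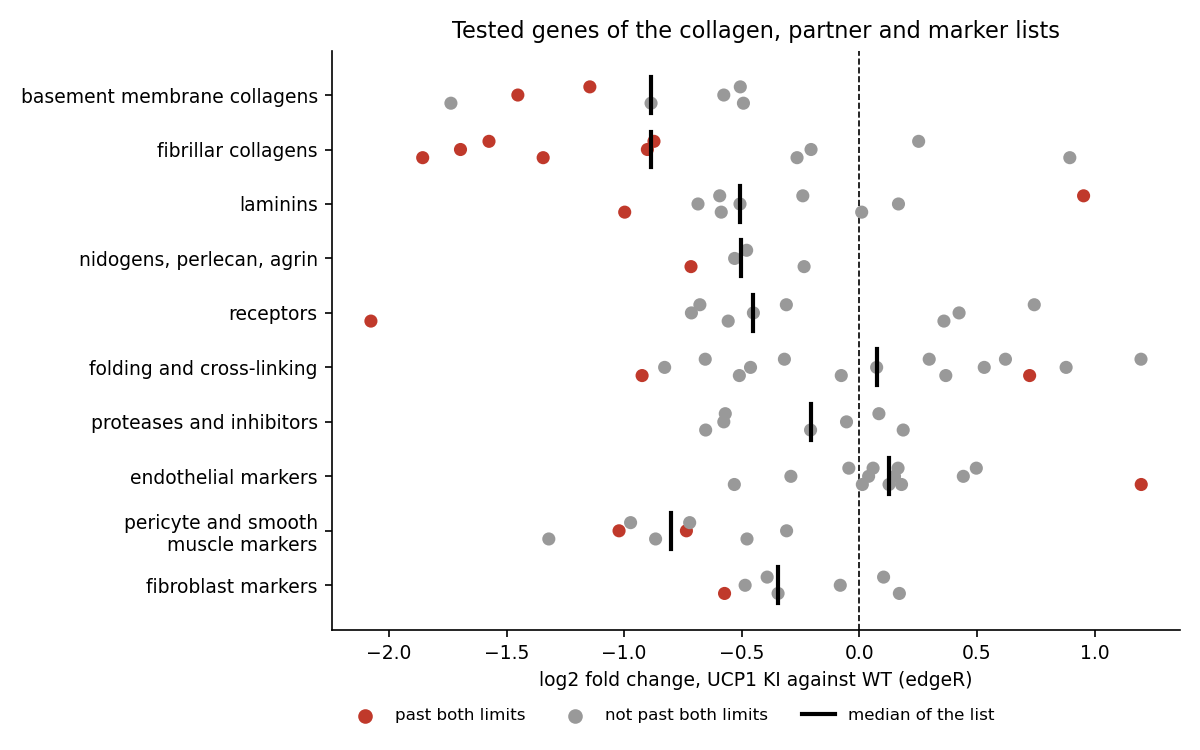
Fitted log2 fold change, UCP1 KI against WT, of every tested gene of the lists named on the axis; each dot is a gene, red where it was past both limits, and the black bar is the median of the list. The medians of basement membrane and fibrillar collagens lie at -0.89, that of the endothelial markers at 0.13 and that of the pericyte and smooth muscle markers at -0.80.

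The genes whose levels were most like those of *COL4A1*, the member with the most counts, were found by Pearson r of log2(CPM + 1) over the 6 pigs among 11296 tested genes with a symbol. They were *JAM2* and *APLN* (r = 0.997 for both), *S1PR2*, *ZNF217* and *MTSS1* (r = 0.99 for each). *JAM2*, a junctional adhesion molecule, was at 14.8, 14.1 and 7.36 CPM in UCP1 KI replicates 1 to 3 and at 26.3, 19.5 and 12.7 CPM in WT replicates 1 to 3. *APLN*, which encodes the peptide apelin, was at 3.33, 2.89 and 0.741 CPM and at 6.53, 4.13 and 2.20 CPM. In both, as in *COL4A1*, WT replicate 1 was highest and UCP1 KI replicate 3 lowest, and the groups overlapped. The 5 genes were the highest of many compared over few pigs, so the values describe these libraries and were not tested.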

How the data were processed

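RNA of longissimus dorsi from 3 UCP1 KI and 3 WT pigs was sequenced as paired ends on an Illumina instrument from mRNA libraries. The authors used FastQC 0.11.2 for quality, Trimmomatic 0.36 for filtering, HISAT2 2.0 for mapping and StringTie 1.3.3b for expression values; the submitters' processing notes name the build Sscrofa11.1. The counting program and annotation release are not given in the sources used here. The authors deposited raw counts per Ensembl gene, without normalization, and the groups come from the labels. Nothing in the labels describes litters or batches.

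From these counts, models were fitted in R 4.3.3 with edgeR 4.0.16 (filterByExpr, TMM, condition as the only term, quasi-likelihood F test, two-sided), on all genes kept, with the limits of the study's methods. Standard errors are the log2 fold change over the square root of F. Exact permutation tests enumerated 20 assignments of pigs, and 3 pigs against 3 cannot go below 0.1. Ratios between members added 0.5 to each count. The procedure was tested on simulated counts. Symbols came from a table of Ensembl names and positions from RefSeq. DESeq2 1.42.0, other scalings and filters, the replicate number as a block and leaving out each pig were alternatives. The members and lists (laminins, linking proteins, folding and cross-linking genes, receptors, proteases and inhibitors, fibrillar collagens, and markers of endothelium, pericytes and smooth muscle, fibroblasts, adipocytes, Schwann cells, leukocytes, neuromuscular junction and skeletal muscle) were chosen with earlier results of these data known. Named genes were all members, all called genes of the lists, the most abundant gene of a list without a call and the 5 genes most like the leading member; a few genes that the rule would name are not reported here, and others are named as examples, chosen after their values were seen.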

Additional observations from a re-analysis of the deposited data

How the results depend on the processing

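The fitted log2 fold changes of the 7 tested members stayed below 0 in every alternative fit that held them. With at least 10 counts required in every pig, 5 of them were fitted, without *COL4A3* and *COL4A6*. The number of members called, 2, was 1 with the replicate number as a block, where *COL4A5* was lost (unadjusted p = 0.0551 from edgeR) and *COL18A1* was called. Same-numbered pigs had correlations of 0.00, 0.09 and 0.28 between their deviations from the group means, and not every pig correlated best with its own number. The value of 0.28, for the pigs numbered 3, was the highest between the groups. Their libraries had a Pearson r of 0.962 on the log2(CPM + 1) scale, as had UCP1 KI replicates 1 and 2, the highest of all library pairs. The labels give no pairing, so the pigs were not treated as pairs, and whether same-numbered pigs shared a batch or litter was not tested. With each pig left out in turn, the number of calls lay between 0 and 4 for the members, 3 and 12 for the partner genes, 1 and 2 for the endothelial markers and 4 and 6 for the fibrillar collagens, and the members' median between -1.10 and -0.55. At an adjusted p under 0.05 from edgeR the counts were 0 for each of these 4 lists, whereas by DESeq2 on the same genes *COL1A1*, *COL1A2* and *TEK* passed adjustment. DESeq2 on the same genes called 10 partner genes in place of 6. Library size only called 3 fibrillar collagens in place of 6. It also moved the all-gene median on the log2 scale from -0.02 to 0.24 and the share of lower genes among the calls from 53.1% to 17.3%. The members that were below every WT pig relative to the marker mean numbered 4 for endothelial markers, 0 for pericyte and smooth muscle markers and 2 for fibroblast markers. With each pig left out, run for the endothelial markers only, the number lay between 4 and 6. Leaving out a pig cannot undo a separation in levels taken pig by pig, so nothing is read from that range. The log2 ratio differences reached from -0.109 to 0.0191 for *COL4A2* over *COL4A1*, from -0.38 to 0.51 for *COL4A6* over *COL4A5* and from -0.74 to 0.54 for *COL15A1* over *COL4A1* with each pig left out, from -0.73 to -0.33 for *COL18A1* and from -1.27 to -0.42 for *COL4A5* over *COL4A1*, and from 0.34 to 1.41 for *COL4A4* over *COL4A3*. Those that changed sign were *COL4A2* over *COL4A1* (0.0191 without UCP1 KI replicate 2), *COL4A6* over *COL4A5* (-0.38 without UCP1 KI replicate 2, -0.27 without WT replicate 1 and -0.01 without WT replicate 3) and *COL15A1* over *COL4A1* (0.54 without UCP1 KI replicate 2, 0.40 when WT replicate 3 was left out). Without WT replicate 3, 11 partner genes were called. The causes were not tested. Depth limits *COL4A4* and *COL13A1*.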

Other observations

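Markers of other cells with basement membranes or in the tissue gave few calls. All 4 adipocyte markers tested had a log2 fold change below 0 (median -1.18), as had 4 of 5 Schwann cell markers (median -0.32). All 5 leukocyte markers were above 0 (median 0.79). Of 4 adipocyte markers tested, among them *FABP4*, a fatty acid carrier, with a log2 fold change of -1.22, 0 were called, at unadjusted p values from 0.115 upwards in edgeR. Summed with *LEP*, which had too few counts to be tested, the adipocyte markers ranged from 42.8 to 87.3 CPM in UCP1 KI pigs and from 45.9 to 282 CPM in WT pigs, where WT replicate 2 was highest. That pig also had the highest TMM-scaled *COL4A5*, *COL4A6* and *COL18A1*, although by library size only *COL18A1* was highest in WT replicate 1. Of 5 Schwann cell markers, 0 were called, at unadjusted p values from 0.132 upwards, and the sums ranged from 24.5 to 41.9 CPM and from 19.6 to 54.4 CPM. Of 5 leukocyte markers, *CD3E*, a T cell receptor subunit, was called higher in UCP1 KI pigs (log2 fold change 1.84, adjusted p = 0.583 from edgeR), and it was called in 2 of the 6 fits that left out a pig, with a value of 0.95 without UCP1 KI replicate 2, and not with the replicate number as a block (1.47, unadjusted p = 0.11 from edgeR). Their part in the collagen levels was not tested.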
